A study of Mus musculus with 4 samples.

Results

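The genes described here are 9 regulators of limb muscle precursors, Pax3, Pax7, Lbx1, Met, Msc, Myf5, Myf6, Myod1 and Myog, taken by gene symbol from a table of 25239 genes. They were read in RNA from hindlimb bud cells of FVB mouse embryos at embryonic day 11.5. All embryos carried the same reporter, inserted at H11: the human ZRS, a limb enhancer of Shh, with the 404G>A change and an hsp68 promoter, drives mCherry. The genotype is otherwise labelled wild-type. The groups were anterior cells sorted as mCherry-positive (2 libraries) and central cells sorted as mCherry-negative (2 libraries). The dissected domain and the sorting gate differed together between the groups, so position and reporter status cannot be told apart. The labels do not say whether the replicates came from separate litters or pools, and p-values then measure only the spread between these libraries.

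Skeletal muscle of the limb does not arise from limb mesenchyme. Its precursors delaminate from the somites, migrate into the bud and only then commit to the muscle lineage, so their regulators report on an immigrant cell population inside a bud that is mostly mesenchyme. Pax3 maintains the migrating precursors, Lbx1 directs their route, and Met, the receptor for hepatocyte growth factor, is needed for them to leave the somite. Commitment and differentiation are then driven by the basic helix-loop-helix factors Myf5, Myod1, Myog and Myf6.

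Pitx1, a gene of the hindlimb, stood at 430 to 483 CPM (counts scaled per 1 M counts, with TMM factors for library composition) in the central libraries and a mean of 442 CPM in the anterior ones. The summed level of 8 limb mesenchyme markers was 3271 to 3342 CPM in anterior and 2357 to 2538 CPM in central libraries. These markers did not move together, with 4 called higher and 1 lower in anterior cells. Lhx2 measured 341 against 54.4 CPM in anterior and central cells, and Pdgfra 258 against 582 CPM. The values of Prrx1 overlapped. The anterior libraries also held transcripts of 6 red blood cell genes at a summed 3287 to 8382 CPM, against 5 to 7.91 CPM in central ones. Library totals were 30080925 to 33257383 counts, so that 3 counts, used as a floor, corresponded to 0.0900 to 0.102 CPM. Over all 14610 genes that passed a filter on low counts, 22.9% were called by edgeR's quasi-likelihood test at a Benjamini-Hochberg adjusted p-value under 0.05, and 12.3% were called lower in anterior cells. Without anterior replicate 2 the number of calls dropped from 3351 to 2009.

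Apart from Myf6, the members were readily counted in central cells. In the anterior mCherry-positive cells Pax7, Msc, Myf5, Myf6 and Myog had at most 3 counts in each library, Lbx1, Myod1 and Pax3 had from 3 to 12, and Met had 114 and 54. Of the 9 members, 8 passed the filter and all 8 were called lower in anterior cells. For 7 of these the filter was met by the central libraries alone, since Met was the only member that reached its level of 0.320 CPM in both anterior libraries. Such genes could pass only by being higher in central cells, and the count is given as a description. In 8 members both anterior libraries lay below both central ones, an arrangement found in 32.6% of tested genes. In bulk RNA, fewer cells of a type and less RNA per cell cannot be told apart.

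**Figure D1:**
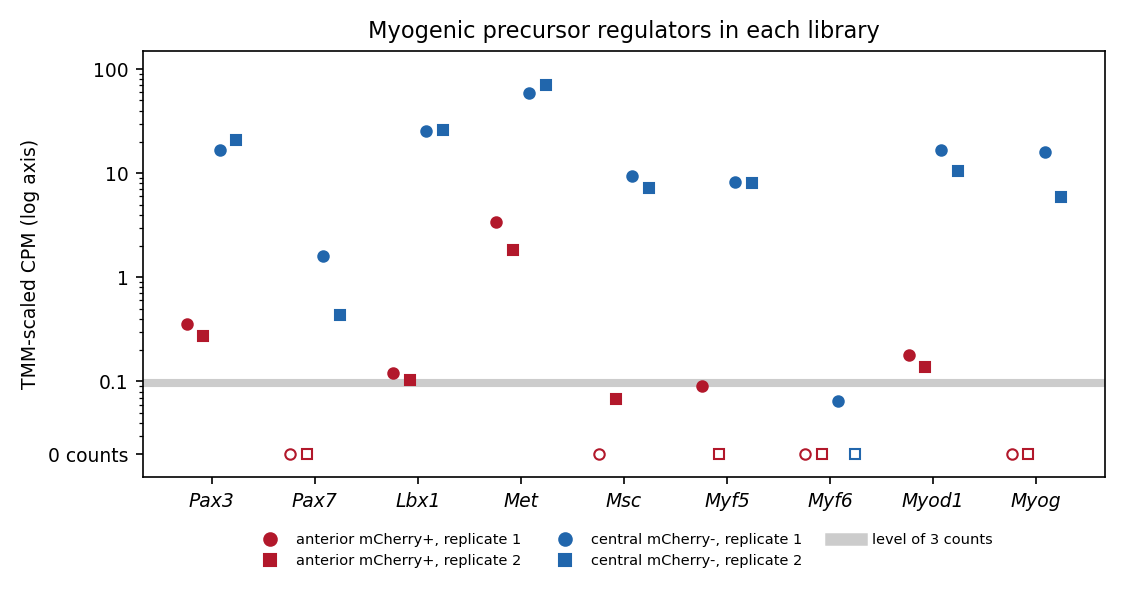
TMM-scaled CPM (log axis) of each member in each library, with anterior libraries in red and central libraries in blue, circles for replicate 1 and squares for replicate 2, open symbols for 0 counts and a grey band at the level of 3 counts. Apart from Myf6, every member has both central points above both anterior points, and Met is the only member whose anterior points lie above 1 CPM.

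Among the genes of the migrating precursor, Pax3, a paired-box factor on chromosome 1 (78101267 to 78197134, minus strand, GRCm38), was counted 12 and 8 times in the anterior libraries, and the central libraries held 512 and 674 counts. Both anterior values were far below both central values, with means of 0.32 ± 0.06 and 18.7 ± 3.0 CPM (SD, n = 2 each). The log2 fold change was -5.86 ± 0.27 (SE; edgeR adjusted p-value 3.40e-06). Pax3 is also a neural crest gene. Sox10 and Foxd3, which mark neural crest derivatives, were at 0 counts in both anterior libraries, against 70 and 18 counts of Sox10 and 8 and 4 of Foxd3 in the central ones. Of the 9 neural crest, Schwann cell and melanoblast markers 7 were tested and 2 were called lower. Others had higher anterior values without being called, with 28 and 40 counts of Ednrb against 12 and 12 (edgeR adjusted p-value 0.0905) and 35 and 23 counts of Dct against 8 and 0 (0.0713), and the values of Kit overlapped. The list as a whole was at a summed level of 34.3 to 43.5 CPM in anterior and 59.6 to 63.2 CPM in central libraries, and their part in the Pax3 difference was not tested.

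Lbx1 (chromosome 19, 45232684 to 45235812, minus strand, GRCm38), a homeobox gene of migrating limb muscle precursors, had 4 and 3 counts in the anterior libraries. The central libraries held 784 and 840 counts, the closest agreement between central replicates among the members of the precursor stage. The log2 fold change was -7.80 ± 0.25 (SE; edgeR adjusted p-value 8.45e-07). By the separate ratio of pooled counts, the level was 230.2-fold lower in anterior cells, with a 95% counting interval of 84.4 to 955.9. Intervals of this kind were computed from halved counts, because most low counts in the table are even, and they cover counting error only.

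Met (chromosome 6, 17463800 to 17573980, plus strand, GRCm38) had the most counts of any member in every library, with no correction for length. Its anterior counts were 114 and 54, against 1797 and 2280 in central cells. The groups were well separated, with means of 2.63 ± 1.12 and 64.4 ± 8.5 CPM (SD, n = 2 each) and a log2 fold change of -4.59 ± 0.22 (SE; edgeR adjusted p-value 3.72e-06). Met alone made up 82.0% and 76.1% of all member counts in anterior cells, but 38.3% and 47.2% in central cells. Without Met, the summed level of the members was 0.580 to 0.750 CPM in anterior and 78.9 to 94.0 CPM in central cells. Met is not restricted to muscle precursors and is also a gene of epithelia. The 8 surface ectoderm markers were all called lower in anterior cells, at a summed 7.59 to 7.77 CPM against 47.5 to 153 CPM in central libraries, and 5 of 7 endothelial markers were called lower, at 5.13 to 9.10 against 25.2 to 36.6 CPM. Their part in the Met difference was not tested.

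Pax7, the Pax3 paralogue known best from fetal precursors and adult satellite cells, was rare at this stage even in central cells. No count was seen in either anterior library, and the central libraries held 49 and 14. With a mean of 1.01 ± 0.82 CPM (SD, n = 2) in central cells, Pax7 was at least 10.5-fold lower in anterior cells against a floor of 3 counts per library, and at least 4.50-fold lower without central replicate 1. It was called (edgeR adjusted p-value 0.00969). In the central libraries there were 0.0957 and 0.0208 counts of Pax7 for each count of Pax3.

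Msc encodes musculin, also named MyoR, a basic helix-loop-helix repressor of myogenic factors, on chromosome 1 (14753346 to 14755992, minus strand, GRCm38). The anterior libraries held 0 and 2 counts and the central ones 288 and 231. The pooled ratio was 257.5-fold lower in anterior cells (95% counting interval 45.8 to 10210), and the gene was called (edgeR adjusted p-value 3.72e-05). The fitted log2 fold change of -7.84 moved to -6.83 without anterior replicate 1 and to -11.05 without anterior replicate 2, the latter against 0 counts and so set by the prior count. An annotated gene on the opposite strand, Gm9947, overlaps an exon of Msc, and the strand setting of the counting is not given in the sources used here.

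Of the determination factors, Myf5 and Myod1 were both present in central cells. Myf5 (chromosome 10, 107482908 to 107486134, minus strand, GRCm38), the earliest of these factors in the embryo, had 251 and 262 counts in central and 3 and 0 in anterior libraries. Its pooled ratio was 169.7-fold lower in anterior cells (95% counting interval 39.3 to 2370), and the gene was called (edgeR adjusted p-value 4.12e-05). The fitted log2 fold change of -7.30 moved to -6.43 without anterior replicate 2 and to -10.97 without anterior replicate 1, again against 0 counts. The central replicates were all but equal, at 8.15 and 8.09 CPM. Myod1 (chromosome 7, 46376474 to 46379099, plus strand, GRCm38), which acts in parallel with Myf5 to commit cells to muscle, had 514 and 342 counts in central and 6 and 4 in anterior libraries. Its means were 13.6 ± 4.3 and 0.16 ± 0.03 CPM (SD, n = 2 each), with a log2 fold change of -6.38 ± 0.39 (SE; edgeR adjusted p-value 1.20e-05).

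Myog, encoding the factor that switches committed myoblasts into differentiation (chromosome 1, 134289989 to 134292548, plus strand, GRCm38), had no count in either anterior library. The central libraries held 494 and 190 counts, a wider ratio between the replicates than for any other tested member but Pax7. Myog was at least 114-fold lower in anterior cells against a floor of 3 counts per library, and at least 61.1-fold lower without central replicate 1 (edgeR adjusted p-value 2.79e-04). Myf6, a late factor of muscle fibres that lies beside Myf5 on chromosome 10 with 6719 bases between the annotated genes, had 2 and 0 counts in central and none in anterior libraries. It was at or under the floor everywhere, was not tested, and has no fold change.

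Promoter sequence was at hand for 4 of the 9 members in RefSeq (GRCm38.p6). Those of Myog and Myf5 are shown because these genes stand at the end and the start of the factor cascade and were both at or under the floor in anterior cells. The Myog window is chr1:134289754-134290053 on the plus strand and the Myf5 window chr10:107486085-107486384 on the minus strand, each written 5′ to 3′. Capitals mark matches, searched on both strands, to the E-box CANNTG, bound by basic helix-loop-helix factors, to the MEF3 motif TCAGGTT, known from muscle promoters, to TATATTTA, the core of the MEF2 site of this promoter, and to the TATA box TATAAA.
Myog: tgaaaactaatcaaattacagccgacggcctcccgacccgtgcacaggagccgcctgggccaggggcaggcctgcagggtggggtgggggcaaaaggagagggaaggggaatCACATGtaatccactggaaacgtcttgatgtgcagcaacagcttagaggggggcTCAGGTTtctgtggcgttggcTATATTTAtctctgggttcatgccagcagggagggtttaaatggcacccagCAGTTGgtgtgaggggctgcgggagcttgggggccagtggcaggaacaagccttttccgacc
Myf5: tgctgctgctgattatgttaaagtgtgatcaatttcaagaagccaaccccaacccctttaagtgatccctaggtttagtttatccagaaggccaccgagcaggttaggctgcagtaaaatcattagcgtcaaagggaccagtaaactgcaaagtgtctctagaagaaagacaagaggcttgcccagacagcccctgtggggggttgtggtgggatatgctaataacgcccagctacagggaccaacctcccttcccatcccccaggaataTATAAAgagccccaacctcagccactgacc
The Myog window held 2 E-boxes, starting at 138 and 12 bases before the RefSeq start, 1 MEF3 match starting at 84 bases before it and 1 MEF2 core match starting at 63 bases before it. None of these motifs overlapped. The Myf5 window held 1 TATA box match and no other. That match started at base 21, counted with the RefSeq start as base 1, and so lay downstream of the start. Of 32544 distinct promoters of the same length, 72.3% held an E-box, 4.07% the MEF3 motif, 1.18% the MEF2 core and 13.6% the TATA box. The MEF2 core was read from the Myog window itself, so its presence there is no finding. The Met window held 2 E-boxes and the Pax7 window none of the motifs. These matches describe the letters of the windows and say nothing of binding in these cells.

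Levels were compared between members per kilobase of merged exon, in CPM per kb over the central libraries. Lbx1 was highest at 10.4 ± 0.14, followed by Met at 8.39 ± 1.11, Myog at 7.33 ± 4.81 and Myod1 at 7.32 ± 2.33 (SD, n = 2). The values of Lbx1 lay above both values of Met with this length, but with the longest transcript as the length Met came to 9.46 ± 1.26 and the values overlapped. Myog, at 10.7 and 3.93, overlapped all 3 of the others. A lower tier held Myf5 at 3.90 ± 0.02, Msc at 3.24 ± 0.62 and Pax3 at 3.03 ± 0.48, with overlapping values of Msc and Pax3. The order in that tier depended on the gene model too, because with the longest transcript Pax3 came to 4.85 and Msc to 4.74, above Myf5. Pax7 at 0.17 ± 0.14 and Myf6 at 0.03 ± 0.04 were lowest.

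From pooled counts, the anterior level was 4.15% of the central level for Met (95% counting interval 3.30% to 5.17%), 1.70% for Pax3 (0.811% to 3.15%) and 0.434% for Lbx1 (0.105% to 1.19%). The interval of Met lay above those of every other member but Pax7. Among the helix-loop-helix factors, Myod1 stood at 1.18% (0.380% to 2.77%), Myf5 at 0.589% (0.0422% to 2.55%) and Msc at 0.388% (0.00979% to 2.18%), and Myog, with no anterior count, at no more than 1.09%. Pax7, with fewer central counts, had an upper limit of 12.5%. As folds these limits are 91.5 for Myog and 7.99 for Pax7. They are less strict than the bounds against a floor of 3 counts, which carry no confidence level. Apart from that of Met, the intervals overlapped one another. They leave out the spread between replicates, which was wide for Met, at 3.42 and 1.84 CPM in the anterior libraries. Over the fits that left out 1 library, the log2 fold change of Met ranged from -5.12 to -4.23 and that of Pax3 from -6.08 to -5.68. The difference between members was not tested.

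**Figure D2:**
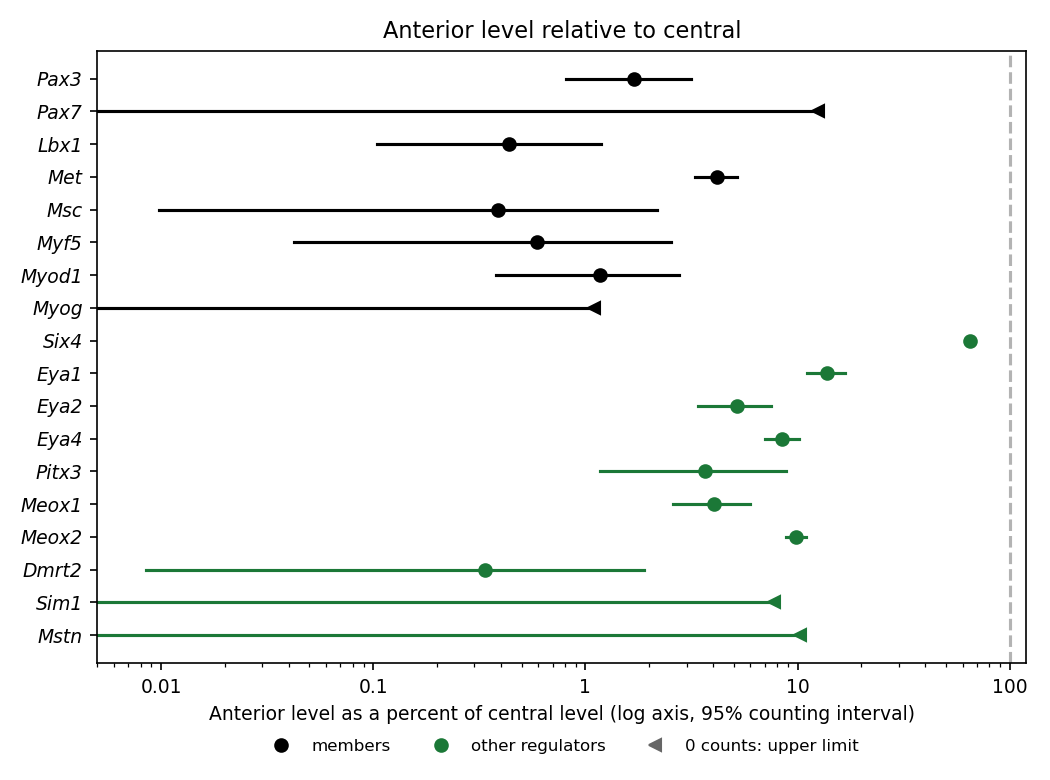
Anterior level as a percent of the central level (log axis) for members in black and other regulators of the myogenic programme in green (not all of the list is drawn), from pooled counts, with 95% counting intervals from halved counts and arrowheads at the upper limit where no anterior count was seen; the dashed line is equality. Met at 4.15% lies to the right of Pax3 and Lbx1, and several of the other regulators, Meox2 among them, lie to the right of Met.

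The central libraries differed from each other in the levels of several members. Myog, Myod1, Pax7 and Msc were higher in central replicate 1, at CPM ratios of 2.73, 1.58, 3.68 and 1.31 between the replicates, while Lbx1 and Myf5 were level at ratios of 0.981 and 1.01. Pax3 and Met were lower in replicate 1, at ratios of 0.798 and 0.828. There were 0.630 and 0.226 counts of Myog for each count of Lbx1 in central replicates 1 and 2, and 0.961 and 0.556 for each count of Myod1. On the scale of log2(CPM + 0.5), the replicates differed by 1.38 for Myog, 1.17 for Pax7 and 0.64 for Myod1, and 90% of all tested genes differed by at most 0.491.

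Genes that act downstream in differentiating muscle were mostly higher in central replicate 1, like Myog, Myod1, Pax7 and Msc but unlike Pax3 and Met. Of 24 such genes 19 were tested, and 18 of these were higher in central replicate 1, against 50.5% of all tested genes, with a median difference of 0.732 on that scale. Myh3, the embryonic myosin heavy chain, had 364 and 52 counts in central replicates 1 and 2, and Actc1, a sarcomeric actin named after its values were seen, had 779 and 163. Dmrt2, a doublesex-related factor of the early myotome, had 453 and 146. The same libraries differed in the opposite direction in surface ectoderm, where 8 of 8 markers were higher in replicate 2 and the summed level was 47.5 CPM in replicate 1 and 153 CPM in replicate 2. The 7 endothelial markers were also all higher in replicate 2, at a summed 25.2 and 36.6 CPM in replicates 1 and 2. Of the 8 limb mesenchyme markers 7 were higher in replicate 1, at 2538 and 2357 CPM, as was Sox10, a neural crest marker. With 1 library on each side there is no test of these differences, and the part of cell composition in them was not tested.

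**Figure D3:**
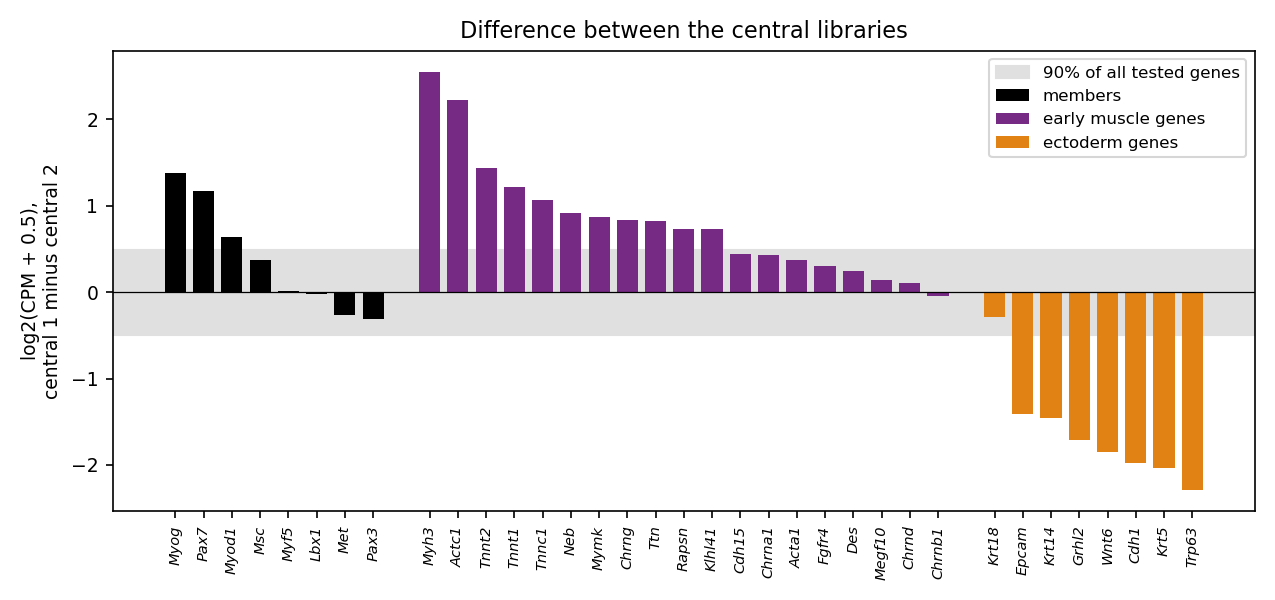
Difference between the central libraries, as log2(CPM + 0.5) of replicate 1 minus replicate 2, for tested members, early muscle genes and surface ectoderm markers, with a grey band that holds 90% of all tested genes. Myog at 1.38 and Pax7 at 1.17 lie above the band, Lbx1 and Myf5 are near 0, and 8 of 8 ectoderm genes lie below 0.

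Other regulators of the myogenic programme, a list of 13 genes that holds homeobox genes and genes of other families, were lower in anterior cells as well. Of these, 12 were tested and 12 were called lower, against 12.3% of all tested genes. Those that did not reach the filter's level of 0.320 CPM in both anterior libraries, Dmrt2 among them, passed only with the central libraries. They were higher there, so the count is a description. With genes at 0 set to their bound, the median log2 fold change was -3.84. It was -0.01 for all tested genes and -6.61 for the members. Sim1 and Mstn, the gene of myostatin, had no anterior count, and in central libraries 52 and 48 counts of Sim1 and 36 and 40 of Mstn, so that Sim1 was at least 16.5-fold lower and Mstn at least 12.5-fold lower. Dmrt2 had 2 and 0 anterior counts.

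For Meox2 the anterior level was 9.83% of the central level (95% counting interval 8.84% to 10.9%), above the intervals of Pax3, Lbx1 and Met. This homeobox gene of limb muscle and mesenchyme measured 12.3 ± 2.3 against 126 ± 3.5 CPM (SD, n = 2), with an edgeR log2 fold change of -3.35, an SE of 0.12 and an adjusted p-value of 1.06e-06. Tcf21, a close relative of Msc, had no anterior count and 8 and 6 central ones and was not tested.

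Of the signals that guide the precursors, Hgf and Cxcl12 were lower in anterior cells, as were the genes of their receptors Met and Cxcr4, while the ephrin receptor gene Epha4 was higher. Of 12 genes of the Met and Cxcr4 pathways and related cues, 7 were called lower and 2 higher. Over all 14610 tested genes, 1792 (12.3%) were called lower and 1559 higher. Gdnf and Cxcr4 passed the filter only with the central libraries. Hgf, the ligand of Met, had 31 and 22 counts in anterior and 726 and 1231 in central libraries. The groups did not overlap, and the log2 fold change was -5.18 ± 0.29 (SE; edgeR adjusted p-value 8.04e-06), in the same direction as that of its receptor. The chemokine gene Cxcl12 measured 20.8 ± 0.80 against 350.9 ± 34.5 CPM (SD, n = 2). Its receptor gene Cxcr4, carried by migrating muscle precursors among other cells, had 6 and 20 counts against 268 and 298. The log2 fold change of Cxcr4 was -4.40 ± 0.46 (SE; edgeR adjusted p-value 2.48e-04), moving to -3.70 without anterior replicate 1 and -5.60 without anterior replicate 2. Gdnf, a secreted factor, had 2 and 0 counts against 310 and 329. Epha4, named after its values were seen, measured 606 ± 42.3 against 235 ± 11.9 CPM (SD, n = 2) and was called higher (log2 fold change 1.37, edgeR adjusted p-value 7.04e-06). Efna5, which encodes an ephrin ligand, was called lower, at a log2 fold change of -0.57 (edgeR adjusted p-value 0.00334). The adaptors that carry the Met signal in the cell, named after their values were seen, differed much less. Gab1 was called lower, at a log2 fold change of -0.44 (edgeR adjusted p-value 0.0177), and Shc1 higher, at 0.24 (0.0345). Grb2, at means of 101 and 90.4 CPM in anterior and central cells, and Ptpn11, at 219 and 233 CPM, were not called (edgeR adjusted p-values 0.213 and 0.417).

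Of the genes for partners and inhibitors of the myogenic factors, Id1, Id2, Id3 and Twist1 were higher in anterior cells. Of 13 genes in this list, 4 were called higher and 3 lower, and the lower calls were not kept without anterior replicate 2. Over all 14610 tested genes, 1559 were called higher and 1792 (12.3%) lower. Id1, which sequesters the E-protein partners of the myogenic factors, measured 265 ± 2.6 CPM in the anterior and 114 ± 42.5 CPM in the central population (SD, n = 2). Its log2 fold change was 1.23 (SE 0.20; edgeR adjusted p-value 0.00277). Id3 and Id2, of the same family, had log2 fold changes of 1.08 (SE 0.15, edgeR adjusted p-value 0.00125) and 0.59 (SE 0.12, adjusted p-value 0.0101). Twist1, a mesenchymal factor that can inhibit Myod1, had one of 0.83 (SE 0.08, edgeR adjusted p-value 1.16e-04). Mdfi, another inhibitor of the myogenic factors, had lower anterior values, at 47.2 ± 14.2 against 71.7 ± 15.0 CPM (SD, n = 2), and was not called (log2 fold change -0.60, edgeR adjusted p-value 0.0593). Of the E-protein genes, named like Mdfi after their values were seen, Tcf3 was not called at 621 and 601 CPM in anterior and central cells (edgeR adjusted p-value 0.613), while Tcf4, at 362 and 490 CPM, and Tcf12, at 429 and 503 CPM, were called lower (0.00452 and 0.0395). Mef2c, a cofactor of the myogenic factors that is also found in other lineages, had overlapping values of 520 and 334 anterior and 528 and 277 central counts, with an edgeR adjusted p-value of 0.888.

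Of the 24 early muscle genes, 15 of the 19 tested were called lower in anterior cells and none higher. Over all tested genes, 12.3% were called lower. The median log2 fold change of the 19 genes was -3.34. Tested genes that did not reach the filter's level of 0.320 CPM in both anterior libraries passed only with the central libraries, where they were higher. They include Chrng, Chrnd and Tnnt2, with no anterior count, and also Myh3, Actc1, Cdh15 and Mymk. The count is therefore given as a description. Cdh15, the muscle cadherin, had 4 and 12 counts in anterior and 453 and 347 in central libraries (edgeR log2 fold change -5.61, SE 0.42, adjusted p-value 3.98e-05). The log2 fold change was -4.94 without anterior replicate 1 and -6.68 without anterior replicate 2. Chrng and Chrnd, subunits of the acetylcholine receptor, and Tnnt2, a troponin, had no anterior count. Against the floor of 3 counts they were lower by at least 15.5-fold (Chrng), 12.9-fold (Chrnd) and 12.2-fold (Tnnt2). Without central replicate 1 the bounds for Chrng and Tnnt2 were 9.64-fold and 4.18-fold. Myh3 had 3 and 0 anterior counts and was called (edgeR adjusted p-value 0.00410), though not with limma-voom (adjusted p-value 0.0856). Mymk, the gene of the fusion protein myomaker, had 8 and 10 counts against 63 and 29. Its call (edgeR adjusted p-value 0.0291) was lost with limma-voom (0.0574) and without anterior replicate 1 (0.104), anterior replicate 2 (0.0629) or central replicate 1 (0.268).

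**Figure D4:**
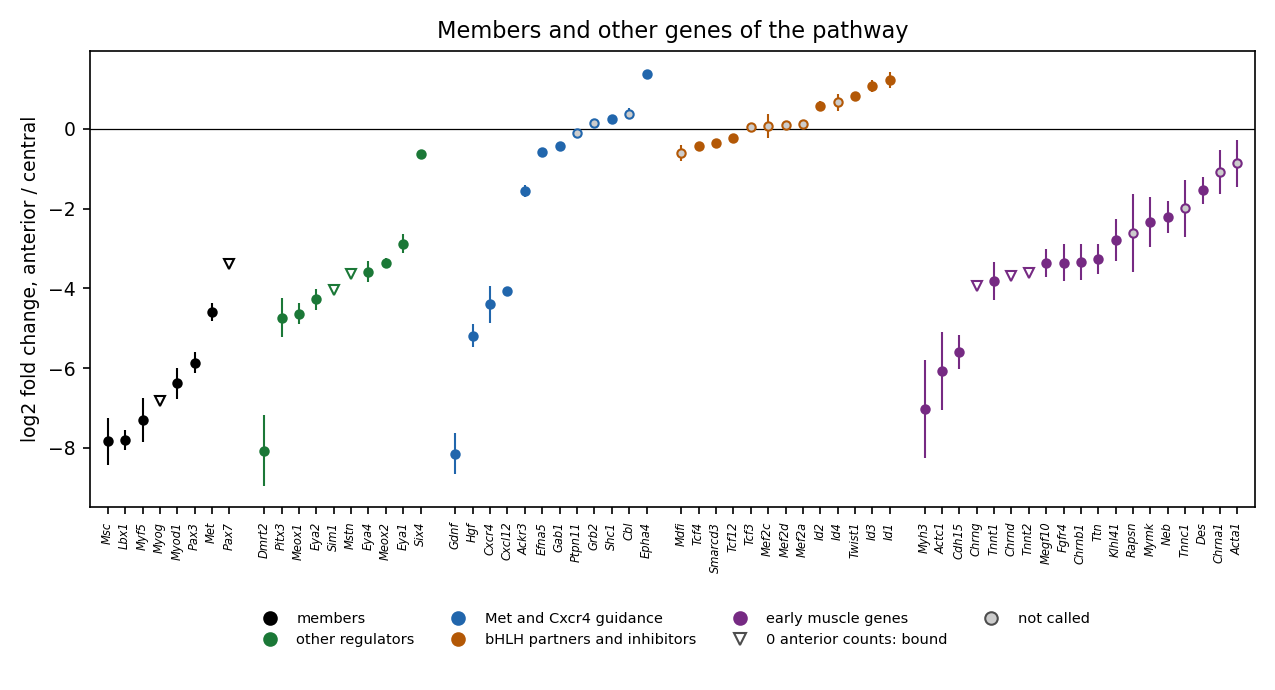
Log2 fold change of anterior over central cells for tested members and most tested genes of 4 further lists, with standard errors, grey-filled circles for genes that were not called and open triangles at the bound for genes with 0 anterior counts. The members lie between -7.84 and the bound of Pax7, while the bHLH partners and inhibitors lie on both sides of 0; for genes with 1 to 3 anterior counts in all, such as Msc and Myf5, the plotted value is the fitted one and depends on the prior count.

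Over the whole table, a call lower in anterior cells with a fitted log2 fold change of -4 or below was made for 1.33% of tested genes. The 8 called members were all fitted at or beyond it. Pax7 and Myog are known only to their bounds, and the 10.5-fold bound of Pax7 is short of that size. At most 3 counts in both anterior libraries were found in 0.972% of tested genes and in 4 tested members, Pax7, Msc, Myf5 and Myog, as well as in Myf6, which was not tested. Since 7 of the 8 members passed the filter through the central libraries alone, nothing is read from these shares.

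The profile over the 4 libraries, as log2(CPM + 0.5) centred on each gene's mean, was used to find the genes most like the mean of the 8 tested members. The nearest by Euclidean distance were Meox1 (0.140), Ntn1 (0.285), Calb2 (0.303), Smoc2 (0.309) and Gsc (0.311). The members themselves lay 0.233 (Msc) to 2.66 (Pax7) from their own mean. Meox1, a homeobox gene of the somite, had 30 and 20 counts in anterior and 705 and 546 in central libraries. Ntn1, the gene of the guidance cue netrin-1, had 151 and 102 against 2381 and 2466. Calb2 had 4 and 0 against 340 and 207, Smoc2 22 and 18 against 779 and 465, and Gsc 64 and 70 against 1656 and 1169. With 4 libraries in 2 groups, this likeness mostly reflects the size of the difference between groups.

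Markers of blood differed in the other direction. The 6 red blood cell markers were all called higher in anterior cells, and 3 of 6 macrophage markers were called higher, at 12.3 to 16.4 against 5.41 to 6.17 CPM. Of 8 limb mesenchyme markers, 4 were called higher and 1 lower in anterior cells. Lhx2 measured 341 against 54.4 CPM, and Pdgfra, the 1 called lower, 258 against 582 CPM. The part of these cell types in the members' differences was not tested.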

How the data were processed

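RNA was read in 4 libraries, 2 of anterior mCherry-positive and 2 of central mCherry-negative hindlimb cells, grouped by sample title. The authors deposited whole-number read counts per gene symbol, not normalized. STAR 2.7.9a, HTSeq, DESeq2 and mm10 are named in the submitters' processing notes, with no roles; the annotation and strand setting are not given in the sources used here. Low counts were mostly even (72.8% to 75.7% of counts from 1 to 10), the pattern left when both mates of a pair are counted.

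Counts were filtered with filterByExpr, scaled by TMM and compared with edgeR 4.0.16 in R 4.3.3 (quasi-likelihood F test, 2 residual degrees of freedom, Benjamini-Hochberg over 14610 genes, threshold 0.05), after the pipeline was tested on simulated data. The SE is the absolute log2 fold change divided by the square root of F. Ratios from pooled counts have exact binomial 95% intervals. Replicates differed by more than sampling noise (chi-square per degree of freedom of 15.2 and 8.55 on halved counts). Coordinates and exon lengths are from GENCODE M21 (GRCm38, the assembly of mm10). Named genes were the members, the 4 called genes with the largest changes in each list, a fixed set of further genes, and the 5 nearest profiles; some genes that met this rule are not reported here. The members and lists were chosen with earlier results of these data known. Alternatives were other scalings, filters and tests (limma-voom with limma 3.58.1, DESeq2 1.42.0), a replicate block, halved counts and leaving out each library.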

Additional observations from a re-analysis of the deposited data

How the results depend on the processing

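All 8 tested members were called lower with DESeq2 size factors, library size alone, no filter beyond 1 count, the DESeq2 Wald test, limma-voom and the replicate block. With a mean count of at least 50, with halved counts and without central replicate 1, Pax7 did not pass the filter and the other 7 were called. Leaving out each library in turn leaves 1 residual degree of freedom and assumes that the lone library of a group varies like the other group. In those fits 7 to 8 members, 12 of the other regulators, 7 to 10 of the guidance genes, 4 to 7 of the partners and inhibitors and 13 to 19 of the early muscle genes were called. Over all genes these fits made 2009 to 3697 calls.

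The labels do not say that replicate numbers mark shared embryos, and the replicate differences of the groups correlated at 0.064 (Pearson, across genes). With the replicate block 3586 genes were called, 3264 of them also without it, and 8 members. Mef2c, which was not called, ranged from -0.34 (without central replicate 2) to 0.66 (without central replicate 1) and was -0.17 without anterior replicate 1; the cause was not tested. With 3 or fewer counts in each anterior library, the folds of Pax7 and Myog are lower bounds against the floor, and those of Msc and Myf5 have wide counting intervals.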
